A study of Drosophila melanogaster with 6 samples.

Results

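Adenylyl cyclases make the second messenger cAMP from ATP, phosphodiesterases break it down, and protein kinase A (PKA) is the main kinase that cAMP switches on. In the resting enzyme, regulatory subunits hold the catalytic subunits inactive, and binding of cAMP to the regulatory subunits frees them. In the *Drosophila* wing imaginal disc, the larval tissue from which the adult wing forms, PKA is best known for its place in Hedgehog signalling, where it phosphorylates the transcription factor Ci and the membrane protein Smo. The genes described here are 9 of the 17478 genes in the count table, taken by their FlyBase symbols: the transmembrane cyclases *Ac76E*, *Ac78C*, *Ac13E*, *Ac3* and *rut*, the cAMP phosphodiesterase *dnc*, the PKA catalytic subunit *Pka-C1* and the PKA regulatory subunits *Pka-R1* and *Pka-R2*. The family was selected on the measured difference of *Ac76E*, which was lower in *CycGΔP* discs in these data, so the difference of *Ac76E* is given as a description with no p-value, and the other 8 genes are members by function.

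Polyadenylated RNA was sequenced as reads of 50 bp from 3 *CycGΔP* samples (*UAS-CycGΔP*, *da-Gal4/+*) and 3 control samples (*da-Gal4/+*), each made from 150 wing discs of female larvae in the third instar, raised at 25°C. Both groups carry the *da-Gal4* driver, which is active throughout the larva, and only the first carries the inducible transgene for Cyclin G without its PEST domain. According to the study's methods the replicates came from independent crosses. The comparison asks which transcripts differ when this form of Cyclin G is expressed throughout the larva.

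Libraries held between 21853360 and 40059450 counts, with the fewest in *CycGΔP* replicate 2 and the most in control replicate 2. Levels are given as CPM, each gene's counts scaled to the same total in every library after TMM normalization. *CycG* itself was at 978 ± 67.7 CPM in *CycGΔP* discs, against 732 ± 51.8 CPM in the control (n = 3 each, SD), and the counts do not separate the transgene from the endogenous gene. Markers of disc epithelium such as *nub*, *vg* and *ap* summed to 1989 to 2119 CPM in *CycGΔP* libraries and 1855 to 2167 CPM in control libraries, over 10 genes. Markers of fat body, the storage tissue of the larva, summed to 4596 to 7556 CPM in *CycGΔP* libraries and 717 to 22238 CPM in control libraries, with the highest value in control replicate 1. With edgeR's quasi-likelihood test, 134 of 9408 genes kept by its expression filter (1.42%) had an adjusted p-value under 0.05, 65 higher (0.691%) and 69 lower (0.733%) in *CycGΔP* discs.

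All 9 genes passed the filter. Counts of calls are given over the 8 genes other than *Ac76E*, since the family was selected on that gene. Of these 8, edgeR, DESeq2 and limma voom each called 0, and 1, *Ac78C*, had an unadjusted p-value under 0.05 in edgeR, as had 14.7% of all tested genes. *CycGΔP* and control libraries overlapped for all 8, while they did not overlap for 22.0% of all tested genes (9.98% with *CycGΔP* higher and 12.1% with *CycGΔP* lower). The median log2 fold change was 0.094 over the 8 genes other than *Ac76E*, and 0.012 over all tested genes. For 5 of the 9 genes the log2 fold change lay within 0.15 of 0, while the 5 cyclases spanned −1.36 (*Ac76E*) to 1.43 (*Ac78C*).

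**Figure D1:**
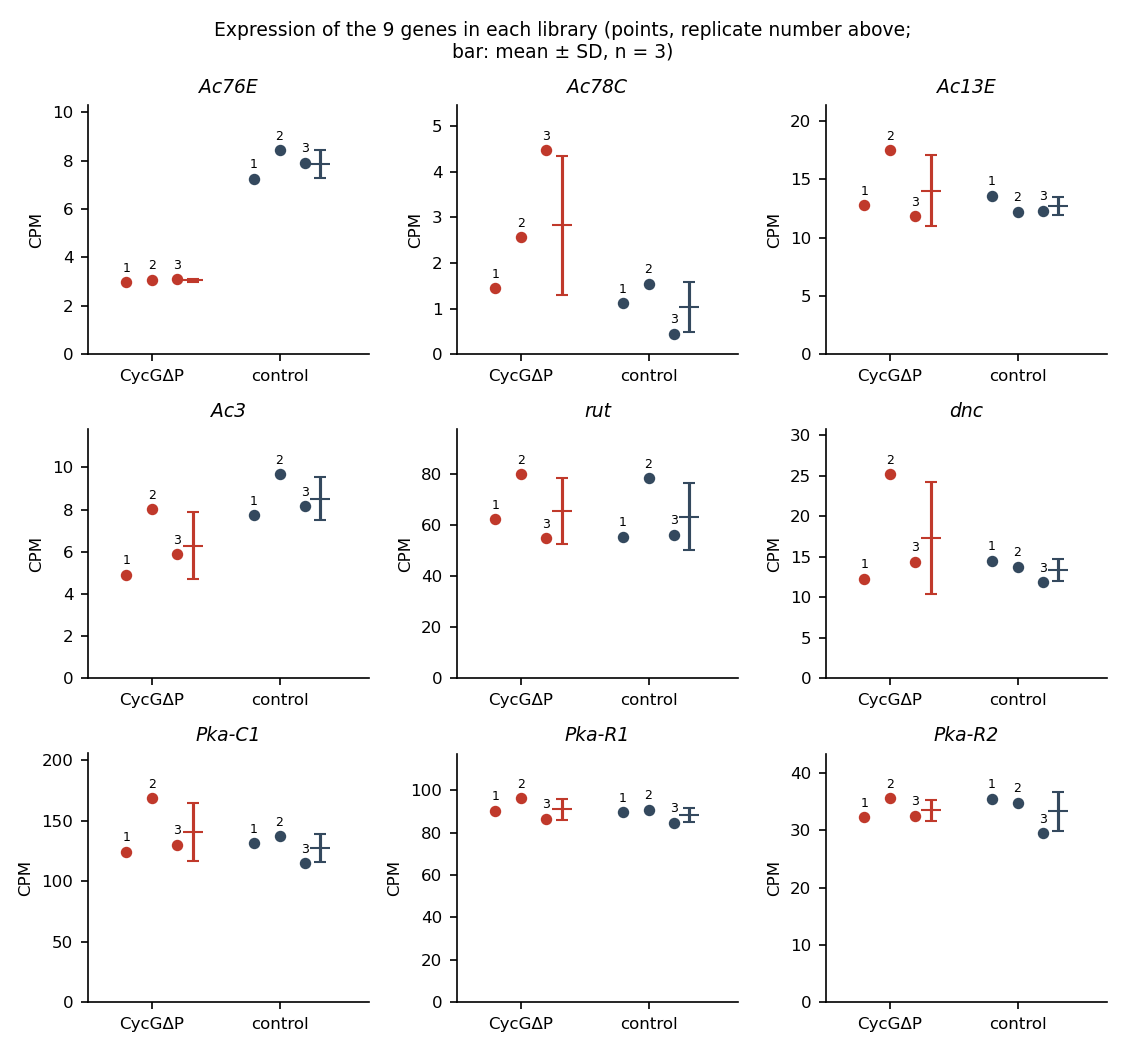
CPM of the 9 genes in each library (vertical axes from 0), with *CycGΔP* libraries at the left and control libraries at the right of each panel, replicate numbers above the points, and the mean ± SD (n = 3) beside them. The groups are apart for *Ac76E* (2.97 to 3.11 against 7.26 to 8.42 CPM) and overlap for the other 8 genes.

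*Ac76E* (FBgn0004852) lies on the plus strand of chromosome 3L of dm6, from 19939287 to 19977960, with 2 annotated transcripts. It encodes a transmembrane cyclase, and in flies the gene is a known target of the transcription factor FOXO. Its expression was 2.97, 3.09 and 3.11 CPM in *CycGΔP* replicates 1, 2 and 3, against 7.26, 8.42 and 7.91 CPM in control replicates 1, 2 and 3. All *CycGΔP* libraries were below all control libraries, and the *CycGΔP* values lay very close together. The means were 3.06 ± 0.0728 CPM and 7.86 ± 0.582 CPM (n = 3 each, SD), a ratio of 0.389 and a fitted log2 fold change of −1.36 (SE 0.145, where SE is the standard error). By log2 fold change it stood in place 134 from the lowest of the 9408 tested genes.

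The gene is rare in these discs, so counting error matters. The counts were 78, 65 and 89 in *CycGΔP* replicates 1, 2 and 3, and 227 in both control replicates 1 and 3, with more in the deeper control replicate 2. Exact Poisson 95% intervals, which cover counting error only, ran from 2.35 to 3.94 CPM over the *CycGΔP* libraries and from 6.34 to 9.36 CPM over the control libraries. The coefficient of variation in *CycGΔP* discs was 2.38%, less than the 11.4% that counting alone gives at this depth, so the close agreement of these 3 values does not measure the biological spread. In control discs it was 7.40%, beside 6.14% from counting. The log2 fold change lay between −1.44 and −1.33 when any 1 library was left out. Since the family was selected on this difference in the same libraries, the intervals and this range describe it and do not test it. In bulk RNA, fewer cells that express a gene and less RNA per cell cannot be told apart.

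Markers of other cells that a dissected disc can bring along were set beside this gene. The 9 markers of differentiated muscle include *Mhc* (myosin heavy chain) and *Mlc1* (a myosin light chain). They summed to 97.4 to 122 CPM in *CycGΔP* libraries and 165 to 334 CPM in control libraries without overlap. Only *Mhc*, named after its values were seen, was called lower. *Mhc*, *Act57B*, *Mlc1*, *Mlc2*, *up* and *wupA* did not overlap between groups, as 22.0% of all tested genes did not. These genes were lower in *CycGΔP* discs, with log2 fold changes from −2.34 to −1.46. *Act79B*, *TpnC73F* and *sls*, like these genes named after their values were seen, overlapped between groups. *TpnC73F* (−0.84) and *sls* (−0.20) were also lower in *CycGΔP* discs, while *Act79B* was higher. *Act79B* averaged 0.455 CPM in *CycGΔP* discs and 0.301 CPM in control discs. Within the control group the muscle sum was 334, 213 and 165 CPM in replicates 1, 2 and 3, where *Ac76E* was 7.26, 8.42 and 7.91 CPM. The fat body sum was 22238 CPM in control replicate 1 and 717 CPM in control replicate 3. Adult muscle precursor markers (7 genes) summed to 279 to 295 CPM in *CycGΔP* libraries and 251 to 302 CPM in control libraries. Neuronal markers (6 genes) summed to 269 to 304 CPM and 282 to 306 CPM in the same order of groups, haemocyte markers (6 genes) to 34.1 to 183 CPM and 61.3 to 125 CPM, and tracheal markers (4 genes) to 1267 to 1397 CPM and 1124 to 1266 CPM. The tracheal sums did not overlap, being higher in *CycGΔP* libraries by a narrow gap, and 0 of the 4 genes were called. No marker of the lists above was at 0 in all libraries. Markers of male germ line and accessory gland (8 genes) were read because the larvae were labelled female, and summed to 7.24 to 21.5 CPM in *CycGΔP* libraries and 0.638 to 3.61 CPM in control libraries without overlap. Of its 3 tested genes, 2 were called higher with edgeR, both encoding accessory gland proteins and named after their values were seen. *Acp26Aa* had 99, 101 and 127 counts and *Acp26Ab* 55, 65 and 94 counts in *CycGΔP* replicates 1, 2 and 3, and both were at 0 in every control library. These 2 genes are neighbours on the minus strand of 2L, *Acp26Aa* from 5892883 to 5893896 and *Acp26Ab* from 5892298 to 5892862. The other tested gene, *Acp36DE*, also named after its values were seen, overlapped between groups. It had 29, 258 and 82 counts in *CycGΔP* replicates 1, 2 and 3. Control replicates 1, 2 and 3 had 90, 14 and 72 counts of it. In all 6 libraries *Acp70A* and *Mst84Da*, also of this list, were at 0. Its remaining genes, *bam*, *can* and *sa*, did not pass the filter and overlapped between groups. In *CycGΔP* and control discs *bam* averaged 0.137 and 0.217 CPM, *can* 0.0127 and 0.0223 CPM, and *sa* 0.545 and 0.278 CPM. The part of muscle, fat body, tracheal or male marker message in the difference of *Ac76E* was not tested.

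**Figure D2:**
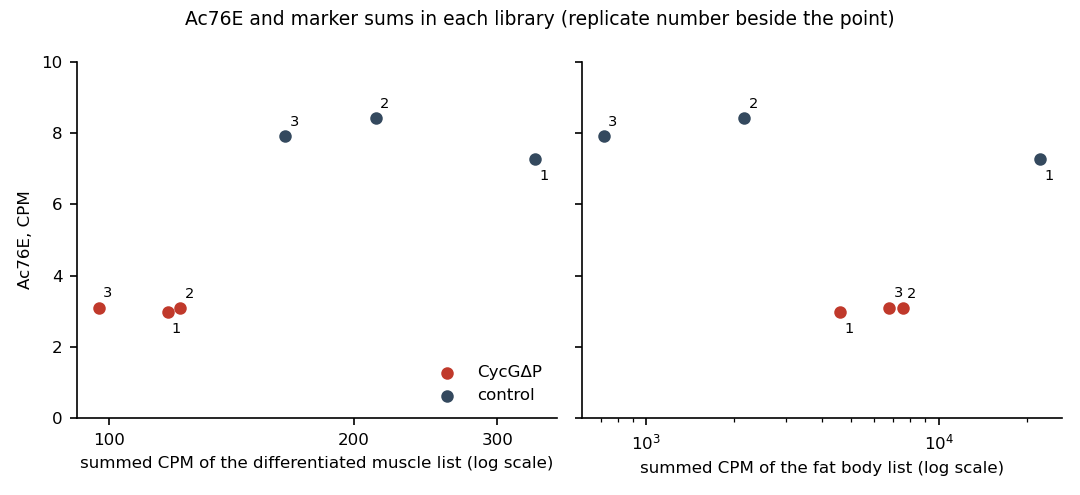
*Ac76E* (vertical axis, CPM) in each library against the summed CPM of the differentiated muscle markers (left panel) and of the fat body markers (right panel), both sums on log scales, with replicate numbers beside the points. Muscle sums were lower in all *CycGΔP* libraries, and control replicates 1 and 3 had 7.26 and 7.91 CPM of *Ac76E* at fat body sums of 22238 and 717 CPM.

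No tested gene within 50 kb of *Ac76E* was called. Of the 34 genes of the table in that window 21 were tested with edgeR, 2 had an unadjusted p-value under 0.05, and their median log2 fold change was 0.014. The nearest tested neighbour, *CG14182*, lies 0.753 kb beyond its end on the other strand and was at 14.3 CPM in *CycGΔP* discs and 16.2 CPM in control discs (log2 fold change −0.18, SE 0.0805, with adjusted p = 0.361 in edgeR).

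Among 6375 tested genes averaging 10 CPM or more, the 5 with the highest Pearson's r with *Ac76E* over the 6 libraries were *yellow-e3* (0.995), FBgn0026753 (0.994), *Gapdh1* (0.992), *CG2200* (0.990) and *CG3788* (0.989). *Gapdh1* is a glycolytic enzyme gene and *yellow-e3* belongs to the Yellow family. All 5 were lower in *CycGΔP* discs, with log2 fold changes from −1.14 (*yellow-e3*) to −0.44 (FBgn0026753). This direction follows from choosing them by r with a gene that is itself lower in those discs. After the group means were removed, r was 0.92 for *CG3788*, 0.54 for *CG2200* and 0.19 to 0.29 for the other 3. These values are descriptions over 6 libraries of the same comparison.

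*Ac78C* (FBgn0024150, 3L, from 21136447 to 21171930, minus strand) encodes another transmembrane cyclase and was the rarest of the 9 genes. Its counts were 38, 54 and 128 in *CycGΔP* replicates 1, 2 and 3, against 35, 63 and 13 in control replicates 1, 2 and 3. In CPM these are 1.45, 2.57 and 4.47 against 1.12, 1.55 and 0.453. *CycGΔP* replicate 1 lay below control replicate 2, so the groups overlapped, and the exact Poisson 95% interval of *CycGΔP* replicate 3 (3.73 to 5.31 CPM) did not meet that of *CycGΔP* replicate 1 (1.02 to 1.99 CPM). The means were 2.83 ± 1.53 CPM and 1.04 ± 0.551 CPM (n = 3 each, SD), and the fitted log2 fold change was 1.43 (SE 0.578, with adjusted p = 0.323 in edgeR). The difference did not pass the threshold, and the spread between libraries of 1 group was larger than counting gives: the coefficient of variation was 54.0% in *CycGΔP* discs and 53.0% in control discs, beside 11.7% and 16.4% from counting.

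*Ac3* (FBgn0023416, 2L, from 21632587 to 21647964, plus strand) encodes a cyclase that acts downstream of the PDF receptor in fly clock neurons. It was at 4.92, 8.03 and 5.90 CPM in *CycGΔP* replicates 1, 2 and 3, against 7.74, 9.67 and 8.15 CPM in control replicates 1, 2 and 3. Only *CycGΔP* replicate 2 reached the control range. The log2 fold change was −0.44 (SE 0.21, with adjusted p = 0.388 in edgeR) and did not pass the threshold, and without *CycGΔP* replicate 2 it was −0.66, with an edgeR adjusted p-value of 0.234.

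*rut* (FBgn0003301, X, from 14787478 to 14826073, minus strand), the calcium and calmodulin dependent cyclase first found through a learning mutant, was the most abundant cyclase. It was at 62.2, 79.8 and 54.7 CPM in *CycGΔP* replicates 1, 2 and 3, against 55.3, 78.3 and 56.2 CPM in control replicates 1, 2 and 3. The highest library of each group was replicate 2, and the ranges nearly coincided. The log2 fold change was 0.05 (SE 0.191, with adjusted p = 0.926 in edgeR), and 2 SE on each side span −0.33 to 0.43. *rut* shares 420 bp of exon with *lncRNA:CR45522* on the other strand, and the use of strand in the counting is not given in the sources used here.

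*Ac13E* (FBgn0022710, X, from 15510877 to 15554278, minus strand), also a transmembrane cyclase, was at 12.8, 17.5 and 11.8 CPM in *CycGΔP* replicates 1, 2 and 3, against 13.6, 12.2 and 12.3 CPM in control replicates 1, 2 and 3. *CycGΔP* replicate 2 stood above the other 5 libraries. The log2 fold change was 0.14 (SE 0.16, with adjusted p = 0.716 in edgeR), with 2 SE on each side spanning −0.18 to 0.46. Its exons overlap those of *Gmap* on the other strand over 347 bp, so its counts are uncertain to that extent.

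Per kb of exon, the 5 cyclases summed to 9.76, 13.0 and 9.52 CPM per kb in *CycGΔP* replicates 1, 2 and 3, against 10.5, 13.3 and 10.5 CPM per kb in control replicates 1, 2 and 3, with overlap. *rut* made up 63.3 ± 3.31% of this sum in *CycGΔP* discs and 57.3 ± 3.33% in control discs (SD, n = 3 each), and these groups overlapped too. *Ac76E* made up 5.73, 4.48 and 6.13% in *CycGΔP* replicates 1, 2 and 3, against 13.1, 11.9 and 14.2% in control replicates 1, 2 and 3. The share of *Ac3* was 9.74, 12.0 and 12.0% against 14.3, 14.0 and 15.0% in the same order, and that of *Ac78C* was 2.17, 2.89 and 6.85% against 1.56, 1.69 and 0.631%. For these 3 cyclases the shares did not overlap between groups, and *Ac13E*, at 16.0 ± 0.669% and 13.9 ± 2.41% (SD, n = 3 each), overlapped. In CPM *Ac3* and *Ac78C* did overlap, while 22.0% of all tested genes did not. The sum that divides each share contains *Ac76E*, the gene on which the family was selected. The shares of 1 library sum to 100%, so they are not independent of each other, and they are given without a test.

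**Figure D3:**
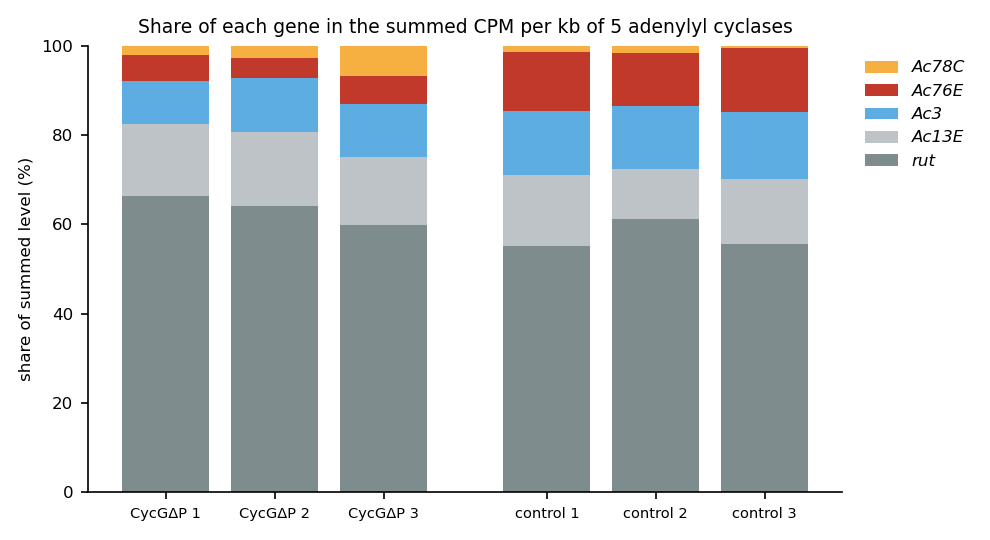
Share (vertical axis, %) of each cyclase gene in the summed CPM per kb of the 5 cyclases, 1 bar per library, *CycGΔP* libraries at the left and control libraries at the right. The *Ac76E* segment is 4.48 to 6.13% in *CycGΔP* libraries and 11.9 to 14.2% in control libraries, and *rut* is the largest segment in every bar.

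On the degradation side, *dnc* (FBgn0000479, X, from 3176440 to 3343767, plus strand, 17 annotated transcripts) encodes a cAMP-specific phosphodiesterase, like *rut* a classic learning gene. It was at 12.3, 25.1 and 14.4 CPM in *CycGΔP* replicates 1, 2 and 3, against 14.5, 13.8 and 11.8 CPM in control replicates 1, 2 and 3. Of the *CycGΔP* libraries only replicate 2 was above all control libraries. The log2 fold change was 0.37 (SE 0.273, with adjusted p = 0.556 in edgeR) and rested on that library: without it the value was −0.0059.

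For the kinase itself, no subunit passed the test. *Pka-C1* (FBgn0000273, 2L, from 9682315 to 9699297, minus strand), the catalytic subunit that phosphorylates Ci in the disc, was at 124, 168 and 130 CPM in *CycGΔP* replicates 1, 2 and 3, against 131, 137 and 115 CPM in control replicates 1, 2 and 3. The groups overlapped, with *CycGΔP* replicate 2 the highest. Its log2 fold change was 0.14 (SE 0.135, with adjusted p = 0.649 in edgeR), and −0.0048 without that library. *Pka-R1* (FBgn0259243, 3L, from 20816118 to 20836048, plus strand), the type I regulatory subunit, was at 90.3, 96.1 and 86.5 CPM in *CycGΔP* replicates 1, 2 and 3, against 89.5, 90.7 and 84.6 CPM in control replicates 1, 2 and 3. It had the smallest SE of the 9 genes (log2 fold change 0.04, SE 0.0709, with adjusted p = 0.812 in edgeR), and 2 SE on each side span −0.099 to 0.18. *Pka-R2* (FBgn0022382, 2R, from 9993890 to 10026042, minus strand), the type II regulatory subunit, was at 32.4, 35.6 and 32.6 CPM against 35.6, 34.9 and 29.5 CPM in the same order of groups. Its log2 fold change was 0.008 (SE 0.0912, with adjusted p = 0.978 in edgeR), with 2 SE spanning −0.17 to 0.19.

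The balance of the PKA subunits was read within each library, per kb of exon. *Pka-C1* over the sum of *Pka-R1* and *Pka-R2* was 0.900, 1.13 and 0.970 in *CycGΔP* replicates 1, 2 and 3, against 0.930, 0.968 and 0.892 in control replicates 1, 2 and 3. *Pka-R1* over *Pka-R2* was 2.62, 2.54 and 2.49 against 2.36, 2.44 and 2.70. Both ratios overlapped between groups, and the first was highest in *CycGΔP* replicate 2. They are message ratios, and protein was not measured here.

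**Figure D4:**
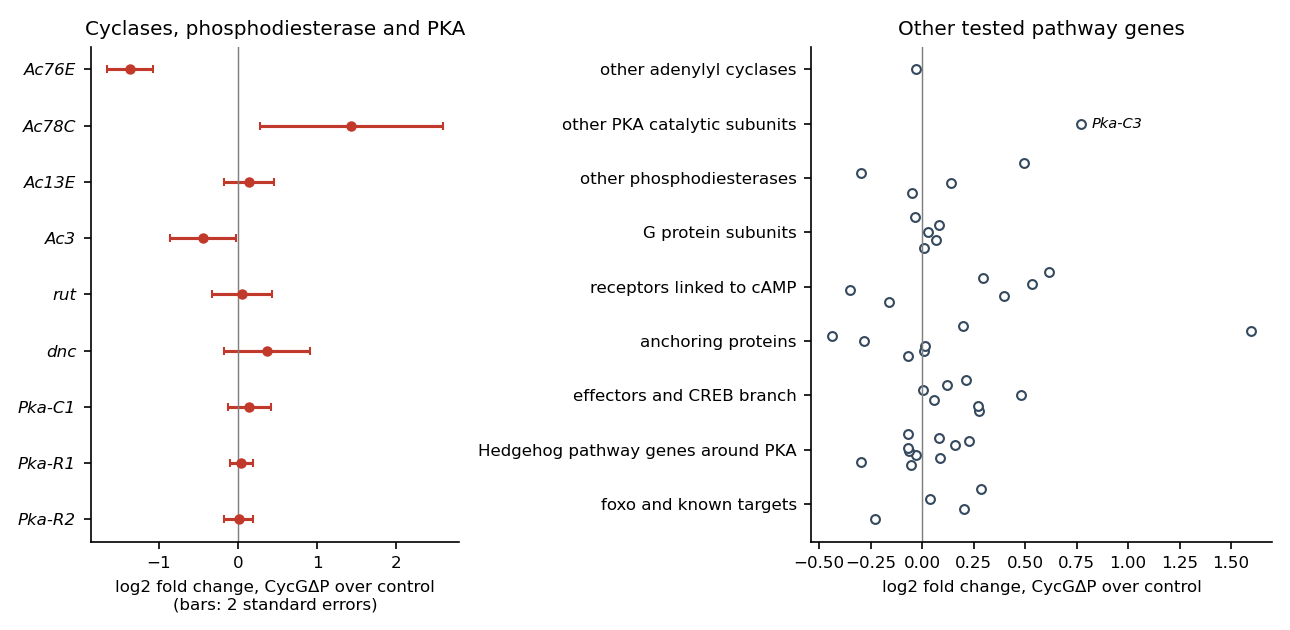
Log2 fold change of *CycGΔP* over control for the 9 genes with 2 SE (left panel) and for the 45 other tested genes of the pathway lists, 1 point per gene (right panel). *Ac76E* is at −1.36 and *Ac78C* at 1.43 with the widest bar, the PKA subunits lie between 0.008 and 0.14, and *Pka-C3* is at 0.77.

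Compared per kb of exon, the order of levels in *CycGΔP* discs was *Pka-C1* (24.6 ± 4.18 CPM per kb), *Pka-R1* (17.6 ± 0.933), *Pka-R2* (6.90 ± 0.372), *rut* (6.82 ± 1.34), *Ac13E* (1.73 ± 0.373), *Ac3* (1.21 ± 0.308), *dnc* (1.03 ± 0.414), *Ac76E* (0.574 ± 0.0137) and *Ac78C* (0.413 ± 0.223; SD, n = 3 each). In control discs it was *Pka-C1* (22.3 ± 2.03 CPM per kb), *Pka-R1* (17.1 ± 0.620), *Pka-R2* (6.86 ± 0.685), *rut* (6.58 ± 1.36), *Ac3* (1.65 ± 0.197), *Ac13E* (1.57 ± 0.0946), *Ac76E* (1.48 ± 0.109), *dnc* (0.802 ± 0.0828) and *Ac78C* (0.152 ± 0.0804; SD, n = 3 each). *Pka-R2* and *rut* overlapped in both groups, as did *Ac3* and *Ac13E*. *Ac76E* overlapped *Ac13E* and stood above every *dnc* value in control discs, whereas in *CycGΔP* discs it stood below every *dnc* value and overlapped *Ac78C*. Exon lengths come from all annotated transcripts together, so genes with many alternative exons, such as *dnc*, come out low on this scale.

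The libraries of 1 group differed in a way that many of these genes shared. In *CycGΔP* replicate 2, which also has the lowest total count, 7 of the 9 genes were the highest of the 3 libraries. Of all tested genes, 38.1% were highest in that library. All 9 genes were above the mean of their group there, and the share of all tested genes above it was not counted. *Ac76E* (0.016) and *Ac78C* (0.004) were above it in log2 CPM by little, where the median over all tested genes was 0.008. In *CycGΔP* replicates 1 and 3, 0 and 2 of the 9 genes were above the group mean. In control replicate 2, 8 of the 9 genes were above the group mean and 6 were the highest (36.2% of all tested genes were highest there). In control replicate 1, 6 were above the mean and 3 the highest (34.4%), and in control replicate 3, 1 was above the mean and 0 the highest (29.5%). After group means were removed, Pearson's r over the 6 libraries was 0.95 between *Pka-C1* and *dnc*, 0.89 between *Pka-C1* and *Pka-R1*, and 0.90 between *Ac13E* and *dnc*. For *Ac76E* with the other 8 genes it lay between −0.18 and 0.59. These genes share their libraries and depth, and the values are given as a description.

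**Figure D5:**
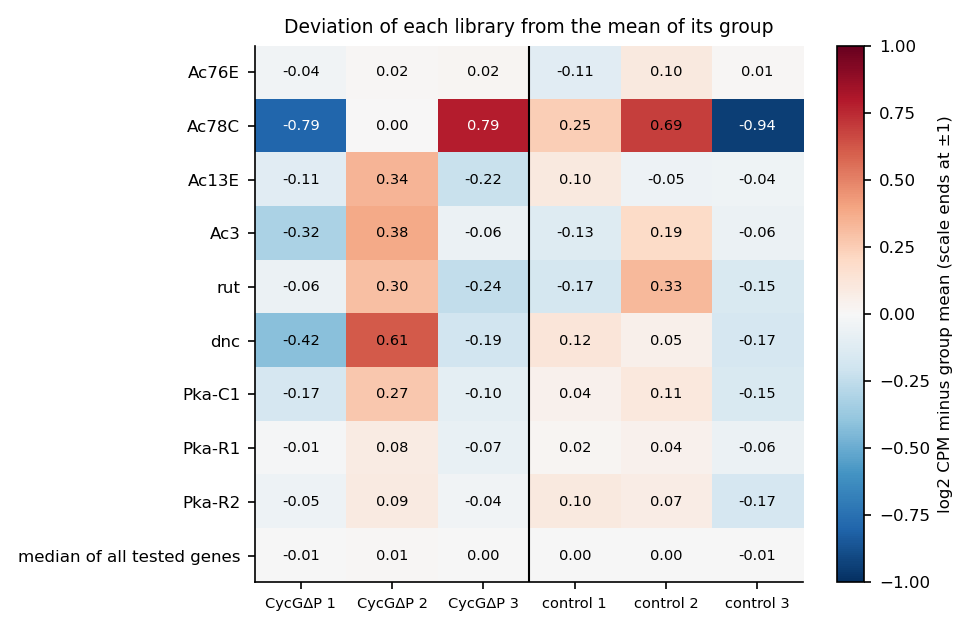
Log2 CPM of each gene minus the mean of its group, for the 3 *CycGΔP* and the 3 control libraries (columns; colour scale from −1 to 1, values printed), with the median over all tested genes in the last row. *CycGΔP* replicate 2 is at or above 0 for all 9 genes, up to 0.61 for *dnc*, while the median over all tested genes there is 0.008.

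Other genes of the pathway were read from lists set by role, 71 genes in all, of which 70 were matched and 45 tested. The groups did not overlap for 6 of the 45 genes, and for 22.0% of all tested genes. With edgeR, 0 of the 45 were called (1.42% of all tested genes were), 6 had an unadjusted p-value under 0.05, limma voom called 0 and DESeq2 called 1 (5.47% of the genes it gave an adjusted p-value). The gene that DESeq2 called was *Pka-C3*, the fly counterpart of the human kinase PRKX. It was at 14.2, 10.6 and 12.6 CPM in *CycGΔP* replicates 1, 2 and 3, against 7.93, 6.77 and 7.14 CPM in control replicates 1, 2 and 3. All *CycGΔP* libraries were above all control libraries. The log2 fold change was 0.77 (SE 0.143, with adjusted p = 0.0662 in edgeR), and DESeq2 without a prior gave an adjusted p-value of 0.00299. With a filter of at least 10 counts in every library the edgeR adjusted p-value was 0.0472. Over the 14 alternative fits *Pka-C3* was called in 3. The adjusted p-value was 0.0604 with limma voom, and 0.0889 to 0.258 with edgeR when 1 library was left out. The remaining catalytic subunit gene, *Pka-C2*, had a count of 0 in every library, which allows up to 3 counts in each.

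Among the other cyclases, *ACXA*, *ACXB*, *ACXC* and *ACXE* had at most 1 count in any library, and only *ACXD* was tested (0.477 CPM in *CycGΔP* discs and 0.489 CPM in control discs, edgeR adjusted p-value 0.993). Of the other phosphodiesterase genes 4 were tested, and 1, *Pde9*, had groups that did not overlap, as had 22.0% of all tested genes. *Pde9*, named after its values were seen, was at 20.6, 32.8 and 20.8 CPM in *CycGΔP* replicates 1, 2 and 3, against 17.0, 19.3 and 16.3 CPM in control replicates 1, 2 and 3. Its log2 fold change of 0.50 (SE 0.197) did not pass the threshold (edgeR adjusted p-value 0.318). *Pde11* was at 56.3 CPM in *CycGΔP* discs and 58.2 CPM in control discs (log2 fold change −0.05, edgeR adjusted p-value 0.878), and *Pde8* at 30.0 and 36.8 CPM (−0.30, edgeR adjusted p-value 0.379). Of the 5 tested G protein subunit genes, which couple receptors to cyclases, all log2 fold changes lay between −0.03 and 0.08; *Gbeta13F* was at 391 and 368 CPM and *Ggamma1* at 309 and 316 CPM in *CycGΔP* and control discs.

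Of 21 receptor genes linked to cAMP only 6 passed the expression filter. The most abundant was *Dh31-R*, the receptor of the neuropeptide DH31, at 33.6, 28.3 and 32.1 CPM in *CycGΔP* replicates 1, 2 and 3, against 21.8, 25.5 and 23.9 CPM in control replicates 1, 2 and 3. The groups did not overlap, and the log2 fold change of 0.40 (SE 0.0945) did not pass the threshold (edgeR adjusted p-value 0.116). The bursicon receptor gene *rk* followed at 5.83 CPM in *CycGΔP* discs and 3.79 CPM in control discs (0.62, edgeR adjusted p-value 0.379). Among the 7 anchoring and modulating genes, *Akap200*, which tethers PKA, was at 1296 and 1360 CPM (−0.07, edgeR adjusted p-value 0.721), and *Cam*, the calmodulin that stimulates the *rut* cyclase, at 918 and 912 CPM (0.009, edgeR adjusted p-value 0.974) in *CycGΔP* and control discs. The highest fold of this list, named after its values were seen, was that of *rg*, which had 55 counts in *CycGΔP* replicate 2 and between 7 and 19 in the other 5 libraries (1.60, edgeR adjusted p-value 0.458).

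A further list of 7 genes, set by role, joined effectors of cAMP with genes of the CREB branch. It is not 1 branch, and a shift of the CREB branch was not tested. Of these 7 genes edgeR called 0, and for 1 the edgeR p-value before adjustment was under 0.05. Their log2 fold changes were above 0 in 7 of 7, with a median of 0.21, where 52.3% of all tested genes and 29 of the 45 pathway genes were above 0 and the median over all tested genes was 0.012. Without *CycGΔP* replicate 2, 5 of the 7 were above 0 and their median was 0.011. When any other library was left out, 6 or 7 were above 0, with medians from 0.12 to 0.30. The co-activator gene *nej* was at 470 CPM in *CycGΔP* discs and 406 CPM in control discs (0.21, edgeR adjusted p-value 0.654), and *CrebA*, a regulator of secretory pathway genes, at 131 and 109 CPM (0.27, edgeR adjusted p-value 0.275). In the Hedgehog pathway, 0 of 10 genes were called by edgeR, 1 had an unadjusted p-value under 0.05, and the median was −0.04. *ci*, whose product PKA phosphorylates, was at 521 CPM in *CycGΔP* discs and 490 CPM in control discs (0.09, edgeR adjusted p-value 0.649), and *CkIalpha*, a kinase that acts on Ci after PKA, at 376 and 390 CPM (−0.05, edgeR adjusted p-value 0.795). *foxo* was at 49.7 and 40.8 CPM in *CycGΔP* and control discs (0.28, edgeR adjusted p-value 0.360), and its target *Thor* at 22.5 and 19.6 CPM (0.20, edgeR adjusted p-value 0.898), with *Thor* spread widely among control libraries, from 268 counts in replicate 3 to 1170 in replicate 1, the library with the highest fat body sum.

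By position, *Ac76E*, *Pka-R1* and *Ac78C* lie on 3L, *dnc*, *rut* and *Ac13E* on X, *Pka-C1* and *Ac3* on 2L and *Pka-R2* on 2R. Within 50 kb of the 9 genes, tested genes with an edgeR adjusted p-value under 0.05 were found beside *Ac78C* (1 of 16, *AsnS*, log2 fold change 0.64, edgeR adjusted p-value 0.0425) and *Pka-C1* (1 of 6, *CG4364*, log2 fold change 0.95, edgeR adjusted p-value 0.0157), both named after their values were seen. That is 2 of 126 tested neighbours (1.59%), near the 1.42% of all tested genes.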

How the data were processed

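Per the study's methods, the authors aligned reads to dm6 with TopHat2 2.0.10 (also listed in the submitters' processing notes), assigned unambiguously mapped reads to Ensembl genes with summarizeOverlaps, and deposited raw counts for 17478 genes. They also deposited a signal table of the same counts divided by 1 DESeq2 size factor per library, which was used only to check this relation. Whether strand was used in counting is not given in the sources used here. Symbols were matched for 17219 genes, and positions and merged exon lengths come from Ensembl annotation of dm6. No sequence was used here.

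Counts were tested with edgeR 4.0.16 (R 4.3.3; TMM, expression filter by group, robust quasi-likelihood, no covariates) and Benjamini-Hochberg adjustment over 9408 genes, threshold 0.05. DESeq2 1.42.0, limma voom 3.58.1, other scalings and filters, the replicate number as a block and each library left out were alternatives. Intervals of 2 standard errors are approximate. The code was tested on simulated data. Members and lists were chosen with earlier results of these data known. Named were the 9 members, pathway list genes that passed 0.05, the 2 most abundant tested genes of each pathway list, marker genes at 0, the 5 genes most like *Ac76E*, and *CycG*. *InR*, *wg*, *btl* and *para* from the lists were not matched and are not analysed here.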

Additional observations from a re-analysis of the deposited data

How the results depend on the processing

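For *Ac76E* the log2 fold change lay between −1.44 and −1.05 over the 14 alternative fits (−1.05 with DESeq2's prior, where shrinkage is part of the fit), which is given as a description. The number of genes called, 134, became 560 with DESeq2 without a prior, 534 with its prior, 14 at an adjusted p-value under 0.01 and 11 to 78 with 1 library left out (27, 17 and 11 without *CycGΔP* replicates 1, 2 and 3, and 78, 17 and 28 without control replicates 1, 2 and 3). The number called over all 9 genes counts only the gene on which the family was selected. It was 0 or 1 depending on the setting, and neither value tests that gene. The number of pathway genes called became 1, *Pka-C3*, with DESeq2 (0.76 without a prior, 0.60 with it) and with at least 10 counts in every library (0.78).

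With the replicate number as a block, 2 genes were called. Same-numbered libraries did not deviate together (correlations of −0.12, −0.29 and −0.15), so the numbers are not taken to pair the samples.

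Among the named genes, the log2 fold changes that changed sign were these. *Pka-R2* was −0.0095 and −0.0086 with DESeq2 without and with the prior and −0.014 with no filter beyond 1 count, and *Cam* was −0.0062, −0.0058 and −0.010 in these fits. *ACXD* was 0.71 with limma voom and 0.61 with the replicate block. With 1 library left out the ranges that crossed 0 were −0.050 to 0.25 for *Ac13E*, −0.12 to 0.22 for *rut*, −0.0059 to 0.55 for *dnc*, −0.0048 to 0.22 for *Pka-C1*, −0.075 to 0.038 for *Pka-R2*, −0.50 to 1.85 for *ACXD*, −0.15 to 0.019 for *Pde11*, −0.067 to 0.19 for *Gbeta13F*, −0.058 to 0.065 for *Cam*, −0.0059 to 0.36 for *nej*, −0.088 to 0.0017 for *CkIalpha* and −0.13 to 1.06 for *Thor*. Among the 8 genes other than *Ac76E* no alternative gave a call. Without division by exon length, the ratio of *Pka-C1* to the regulatory subunits was 1.13 in *CycGΔP* discs and 1.05 in control discs, beside 1.00 and 0.930. With 1 library left out it was 0.935 to 1.05 in *CycGΔP* discs and 0.911 to 0.949 in control discs. The low counts of *Ac76E* and *Ac78C* limit what these libraries can show for both.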
